A study of Mus musculus with 18 samples.

Results

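The acute-phase genes Lcn2, Saa1, Saa2, Saa3, Saa4, Orm1, Orm2, Orm3, Hp and Crp were followed through 18 mouse liver and liver tumour samples. They were taken by symbol from the deposited expression table, and all 10 were found among its 54838 genes. RNA was sequenced from 6 groups of 3 samples, all from C57BL/6 mice aged 36 weeks. WT and miR-181ab1 knockout (GKO) mice each gave tumours and non-tumour liver after diethylnitrosamine (DEN, a liver carcinogen) and normal liver without treatment. DEN was given by intraperitoneal injection at 25 mg/kg, once, on postnatal day 12. The knockout is global, so the microRNA cluster was missing from every cell type of the GKO mice, and the pups treated with DEN were male according to the study. The labels do not tie a tumour to the non-tumour liver of the same mouse.

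The acute-phase response is the change in the plasma proteins that hepatocytes make during inflammation, infection or tissue injury. Interleukin-6 acts through its receptor and STAT3, and interleukin-1 acts through NF-kB and C/EBP factors, to raise the positive acute-phase genes, while the negative ones, such as albumin, go down. In mice the strongly inducible members are the serum amyloid A and orosomucoid proteins and lipocalin-2, whereas C-reactive protein, a main human acute-phase protein, responds only weakly.

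Saa1 and Saa2 encode the serum amyloid A proteins that travel on high-density lipoprotein, Saa3 encodes a form also made by macrophages and fat tissue, and Saa4 encodes a constitutive form. The 4 genes lie side by side within chr7:46711998-46754313 of mm10. Orm1, Orm2 and Orm3, the orosomucoid (alpha-1-acid glycoprotein) genes, lie within chr4:63344560-63365878. Lcn2, which encodes an iron siderophore-binding protein made by hepatocytes, neutrophils and epithelia, lies at chr2:32384633-32388252. Hp, for the haemoglobin-binding protein haptoglobin, lies at chr8:109575128-109579172, and Crp, for C-reactive protein, at chr1:172698055-172833031. Of the 10 genes, 8 had a promoter of 300 bases in RefSeq for GRCm38.p6 (mm10), and those of Hp and Orm1 were not used. The letters TTGCNNAA, a form of the C/EBP word read on both strands, were found in 7 of the 8 promoters, against 10.8% of all 32851 promoters. They are shown with their surroundings because they are what most of the promoters had in common. In each 30-base window, read on the strand of the gene, the matching letters are in capitals.
Lcn2: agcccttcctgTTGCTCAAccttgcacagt
Saa1: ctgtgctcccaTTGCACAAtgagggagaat
Saa2: ctgtgctcccaTTGCACAAtgagggaaaat
Saa3: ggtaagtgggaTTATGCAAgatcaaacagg
Orm2: gagagaacattTTGCGCAAgacatttccca
Orm3: gagggaacattTTGCACAAgacatttatca
The windows are chr2:32387937-32387966 on the minus strand for Lcn2, chr7:46743144-46743173 on the minus strand for Saa1, chr7:46751639-46751668 on the plus strand for Saa2, chr7:46715757-46715786 on the minus strand for Saa3, chr4:63362318-63362347 on the plus strand for Orm2 and chr4:63356026-63356055 on the plus strand for Orm3. In the Saa3 window the letters are a match on the opposite strand. Saa4 had the letters 2 times, and Crp did not have them.

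The promoters of Saa1 and Saa2 were 95.3% identical over their alignment and those of Orm2 and Orm3 86.2%, while Saa1 and Saa3 shared 48.7%. A kB word for NF-kB, GGG and TTNCC with any 2 letters between them, and TTCNNNGAA, used for STAT factors, were in none of the 8 promoters, against 4.79% and 8.30% of all promoters. CTGGGA, the core of an older interleukin-6 response element, was in those of Crp, Orm3 and Saa3 and in 31.8% of all promoters. A match is a description of these letters and not evidence of a bound site.

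Recovered from the table, reads on genes ran from 11925055 to 20751348 per sample. The deleted microRNA genes could not check the genotype labels, since Mir181b-1 was at 0 in all 18 samples and Mir181a-1 had 1 read, in a GKO tumour, and 0 in the other 17. Expression is given in TPM, read counts per unit of gene length, scaled so that each sample sums to 1000000. The hepatocyte markers were high in every group, with a summed TPM of 105919 or more in each sample. WT tumours 1 and 2 were more alike than any other pair of replicates, though they differed by more than the sampling noise: the chi-square of their read counts was 24.4 per degree of freedom, against 25.1 to 277 for the other 17 pairs and 1 for noise alone. Results on the WT tumours were also computed with these averaged. In bulk tissue, fewer cells of a type and less RNA per cell cannot be told apart. The labels do not say whether samples came from separate mice, and p-values measure only the spread between these samples.

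Lcn2 had its highest levels in tumours. The WT tumours had 869, 906 and 971 TPM, and the GKO tumours had 209, 176 and 168 TPM. It was at 6.26, 47.7 and 281 TPM in the WT non-tumours and at 17.9, 4.62 and 21.0 TPM in the GKO non-tumours. Normal livers had 1.31 to 9.70 TPM in WT mice and 2.19 to 6.16 TPM in GKO mice. All WT tumours were above all other samples, and the GKO tumours were above every liver sample but WT non-tumour 3, which was higher than all 3 of them. From the lowest sample, WT normal liver 3, to the highest, WT tumour 3, the range was 739-fold. The spread within a group was small in tumours, where the highest sample was 1.12 times the lowest in WT and 1.24 times in GKO, and large in WT non-tumours, at 44.9 times.

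**Figure D1:**
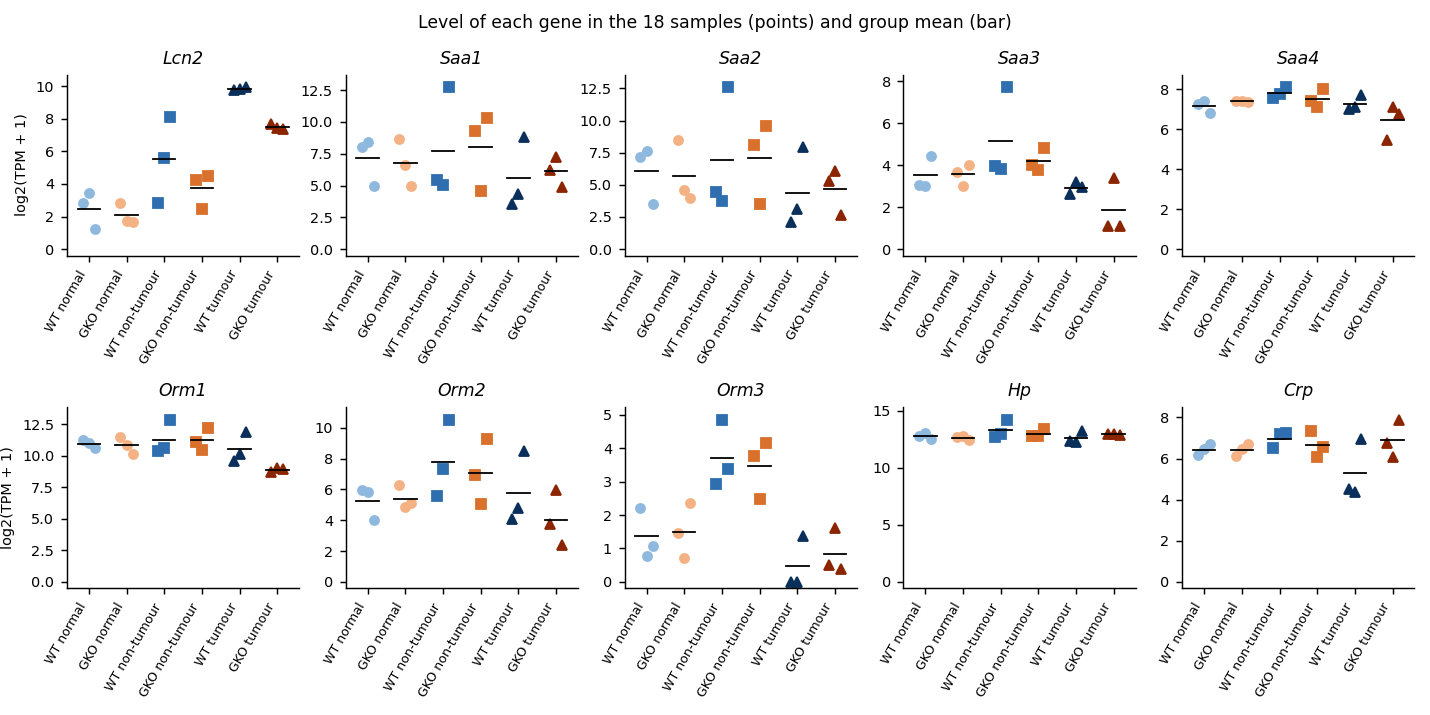
Level of each of the 10 genes as log2(TPM + 1) in the 18 samples (points) of the 6 groups, with the group mean as a bar. Lcn2 sits highest in WT tumours and next in GKO tumours, whereas the Saa and Orm genes have their highest samples in non-tumour liver.

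The genotypes were compared in tumours to ask what the loss of miR-181ab1 goes with in the cancer itself. Lcn2 was lower in GKO tumours, with a mean of 184 ± 21.4 TPM (SD, n = 3) against 915 ± 51.9 TPM (SD, n = 3) in WT tumours. The log2 fold change was -2.31 (SE 0.20), which is 0.201 times the WT level, and the groups did not overlap. The adjusted p was 0.0434 with limma and Benjamini-Hochberg adjustment over 13964 genes, of which 3 (0.0215%) were called, all lower in GKO tumours, while 14.7% did not overlap between the groups and 4.78% did not overlap and were lower. Lcn2 had rank 3 by p among all genes. The call is close to the threshold: with the replicate number as a block the adjusted p was 0.196, with WT tumours 1 and 2 averaged it was 0.358, and leaving out WT tumour 1 or 2 or any GKO tumour took it to between 0.0581 and 0.517, with the log2 fold change between -2.40 and -2.25. Without WT tumour 3 it was 0.0151.

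The other members did not pass the test in that comparison. Orm1 had 759, 1104 and 3758 TPM in the WT and 426, 508 and 485 TPM in the GKO tumours. It did not overlap either, and its log2 fold change was -1.63 (SE 0.56, adjusted p = 0.510), or -0.95 without WT tumour 3, the sample with the highest Orm1. For Saa1 the WT tumours had 10.9, 19.5 and 459 TPM and the GKO tumours 73.6, 147 and 28.9 TPM. These ranges overlapped, with a log2 fold change of 0.52 (SE 1.35), whose sign turned when WT tumour 1 or 2 or GKO tumour 2 was left out. Crp was at 22.3, 19.8 and 122 TPM in the WT tumours, overlapping the GKO tumours at 108, 66.1 and 232 TPM, with a log2 fold change of 1.61 (SE 0.76, adjusted p = 0.585). Haptoglobin RNA was nearly level within the GKO tumours, at 8101, 7805 and 7554 TPM, and overlapped the WT tumours at 5282, 4747 and 9326 TPM. Over the 10 genes 5 log2 fold changes were above 0, as were 60% of all genes, and the median was -0.28, beside 0.09 for all genes tested. That median ran from -1.17 without GKO tumour 2, where 9 members were tested, to 0.14 without WT tumour 3. Wide standard errors mean that a missed threshold does not show equal levels.

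Markers of other cells also varied between the tumours. The 8 stellate cell and fibroblast markers summed to 71.4 to 160 TPM in GKO tumours and to 38.4 to 62.8 TPM in WT tumours, without overlap. At an unadjusted limma p under 0.05, 4 of these 8 were higher and 0 lower, as were 750 and 488 of all 13964 genes tested. The 8 cholangiocyte markers summed to 48.7 to 969 TPM in GKO tumours, against 32.6 to 59.4 TPM in WT tumours. Of the 5 tested, 3 were higher and 0 lower at that unadjusted p. The 12 neutrophil markers summed to 6.34 to 23.2 TPM in GKO tumours, against 17.6 to 32.3 TPM in WT tumours. Of the 4 tested, 0 were higher and 1 was lower at that unadjusted p. None of these 4 had a log2 fold change above 0, as 60% of all genes did, and their median was -0.58. Ly6g was at 0.514 TPM or less and Mpo at 0.143 TPM or less in all 18 samples, but 8 of the 12 were above 0 in each WT tumour. No marker of any cell type was called in this comparison, although only 4 of the neutrophil and 5 of the cholangiocyte markers were high enough to be tested. Their part in the Lcn2 difference was not tested.

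Tumours were next set against the non-tumour liver of the same genotype. In GKO mice Lcn2 rose, Orm1 and Orm3 fell, and the other 7 members were not called. Lcn2 had a log2 fold change of 3.80 (SE 0.50), which is 13.9-fold, and an adjusted p of 0.00818, and its groups did not overlap. Called genes made up 11.7% of the 14092 tested, 7.75% higher and 3.97% lower, and 38.3% did not overlap, 25.7% higher and 12.7% lower. In the WT mice Lcn2 had a log2 fold change of 4.30 (SE 1.18) and was higher in 3 of 3 tumours than in every non-tumour, but it was not called, with an adjusted p of 0.107. Without WT non-tumour 3, at 281 TPM, the log2 fold change was 5.60 and the adjusted p 0.0326. Other omissions took the log2 fold change down to 2.96 and the adjusted p up to 0.282. With all 18 samples in one fit, Lcn2 was called with WT non-tumour 3 kept. Of the 14003 genes tested in WT mice, 4.23% were called, 2.16% higher and 2.07% lower, and 24.8% did not overlap, 11% higher and 13.9% lower.

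Orm3 moved the other way in both genotypes. It was at 0, 0 and 1.61 TPM in WT tumours, which is 0, 0 and 11 reads, against 6.61, 27.6 and 9.43 TPM in WT non-tumours. In GKO mice it was at 0.420, 2.06 and 0.315 TPM in tumours, which is 3, 13 and 2 reads, against 12.7, 4.62 and 16.8 TPM in non-tumours. Every tumour was below every non-tumour. On the log2(TPM + 1) scale, which understates changes of low genes, it fell by 3.25 (SE 0.59, adjusted p = 0.0314) in WT and by 2.64 (SE 0.50, adjusted p = 0.020) in GKO tumours. In WT mice the call was lost with tumours 1 and 2 averaged (0.128), without non-tumour 1 (0.0649) or 3 (0.0912) or without tumour 1 (0.129) or 2 (0.131). In GKO mice it was lost without non-tumour 3 (0.0773) or tumour 1 (0.0503) or 3 (0.0724).

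Orm1, by far the most abundant of the orosomucoid genes, fell in GKO tumours. Its values there, 426 to 508 TPM, were all below the non-tumours at 2131, 1428 and 4582 TPM. The log2 fold change was -2.35 (SE 0.42, adjusted p = 0.0176), and the adjusted p was 0.0586 without GKO tumour 3. In WT mice the tumours, at 759 to 3758 TPM, overlapped the non-tumours at 1334, 1521 and 7162 TPM, and the log2 fold change of -0.74 (SE 0.82) was 0.04 without WT non-tumour 3. Orm2 was at 12.7, 62.2 and 4.24 TPM in GKO tumours against 120, 31.9 and 618 TPM in GKO non-tumours, and these overlapped.

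Saa3 was low in tumours of both genotypes without being called. It was at 5.20, 8.08 and 6.74 TPM in WT tumours against 14.4, 13.3 and 209 TPM in WT non-tumours. In GKO mice it was at 1.16, 9.62 and 1.17 TPM in tumours against 15.3, 12.9 and 27.4 TPM in non-tumours. Neither pair of groups overlapped. The log2 fold changes were -2.24 (SE 0.99, adjusted p = 0.271) in WT and -2.34 (SE 0.63, adjusted p = 0.0540) in GKO mice. The WT value was -0.97 without WT non-tumour 3, the sample at 209 TPM. Leaving out each replicate took the GKO adjusted p from 0.00606, without GKO tumour 2, to 0.176.

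Saa1 had log2 fold changes of -2.14 (SE 2.28) in WT and -1.94 (SE 1.40) in GKO tumours, with overlapping groups. The WT value was 0.35 without WT non-tumour 3, and the GKO value was -3.69, with an adjusted p of 0.0414, without GKO non-tumour 2, the lowest of its group. Other omissions took the GKO value up to -0.81 and its adjusted p up to 0.743. Crp in WT tumours had a log2 fold change of -1.69 (SE 0.68, adjusted p = 0.238), and -2.51 with an adjusted p of 0.00711 without WT tumour 3. Other omissions took it up to -1.23 and its adjusted p up to 0.538. Over the 10 genes, the median log2 fold change was -1.85 in WT and -2.14 in GKO mice, beside -0.02 and 0.20 over all genes. Lcn2 alone was above 0 in WT mice, and Lcn2 and Crp were in GKO mice, as were 47.9% and 62.7% of all genes. Single non-tumours carried much of this. Without WT non-tumour 3 the WT median was -0.30 and 4 of the 10 were above 0, with Saa1, Saa2 and Orm1 added, and without WT tumour 1 it was -1.14. Without GKO non-tumour 3 the GKO median was -0.98 with 3 above 0, and without GKO tumour 3 it was -1.37.

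Markers of other cells moved in the same comparison in GKO mice. Of the macrophage markers 2 of 12 fell, and their sums were 243 to 608 TPM in tumours and 290 to 1433 TPM in non-tumours. Of the stellate cell and fibroblast markers 4 of 8 rose and 1 fell, 2 of 7 endothelial markers rose and 2 of the 3 B cell markers tested fell. Among all genes tested there, 7.75% were called higher and 3.97% lower. In each genotype 1 of 8 hepatocyte markers rose and 1 fell. The one that rose was Alb, for albumin, which is also counted among the negative acute-phase genes below. Their part in the changes of Lcn2, Orm1 and Orm3 was not tested.

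**Figure D2:**
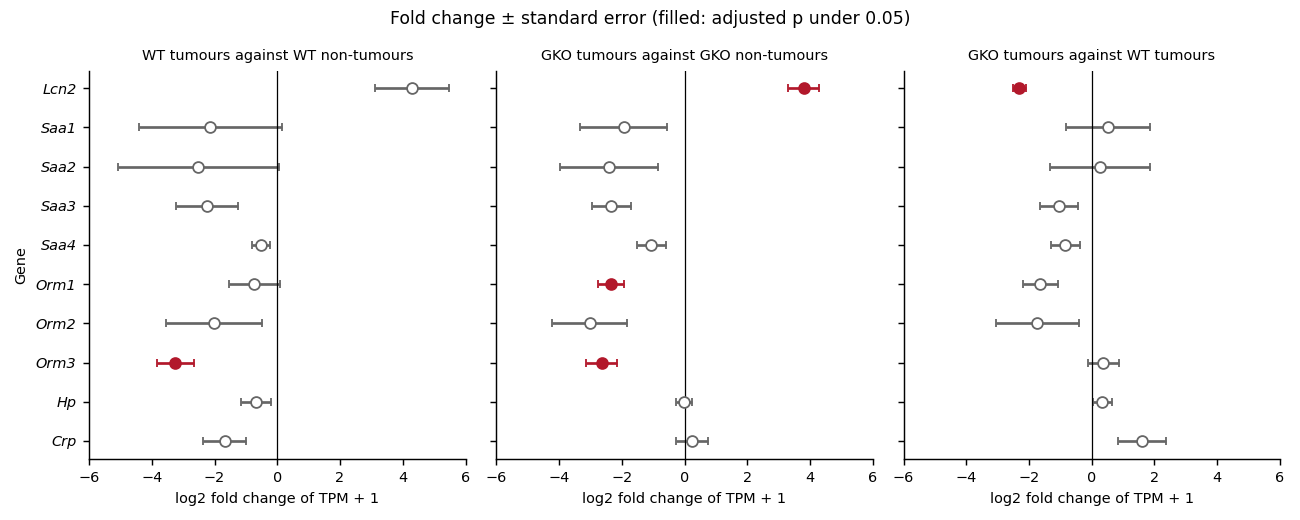
Log2 fold change of TPM + 1 with its standard error for the 10 genes in tumours against non-tumours of WT and GKO mice and in GKO against WT tumours (3 samples per group). Filled points have an adjusted p under 0.05: Orm3 in WT, Lcn2, Orm1 and Orm3 in GKO mice, and Lcn2 between the tumours.

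The tumour effects of the genotypes were also compared with each other. The difference of the genotype effect, tumours minus non-tumours, was -0.51 (SE 1.41, adjusted p = 0.893) for Lcn2 on the log2 scale. No member was called, the smallest adjusted p being 0.479 for Crp, and 0.0142% of genes were. With limma, 10.5% of all genes and none of the 10 members had an unadjusted p under 0.05. A different tumour effect in the genotypes was therefore not shown for any member.

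Lcn2 and Saa1 parted in tumours. The ratio of their TPM was 0.0153 to 1.5 in the 12 liver samples. In tumours it was 79.8, 46.6 and 2.11 in WT and 2.83, 1.20 and 5.82 in GKO mice. Among the livers only WT non-tumour 2, at 1.5, was above any tumour, and it exceeded only GKO tumour 2. Over the levels of all 18 samples, Pearson's r of Lcn2 with Saa1 was 0.03 on the log2 scale. Over deviations from the mean of each sample's own group it was 0.78, and 0.79 over the 15 samples outside the WT non-tumours. These values describe 18 samples that share groups and, within a sample, a library.

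**Figure D3:**
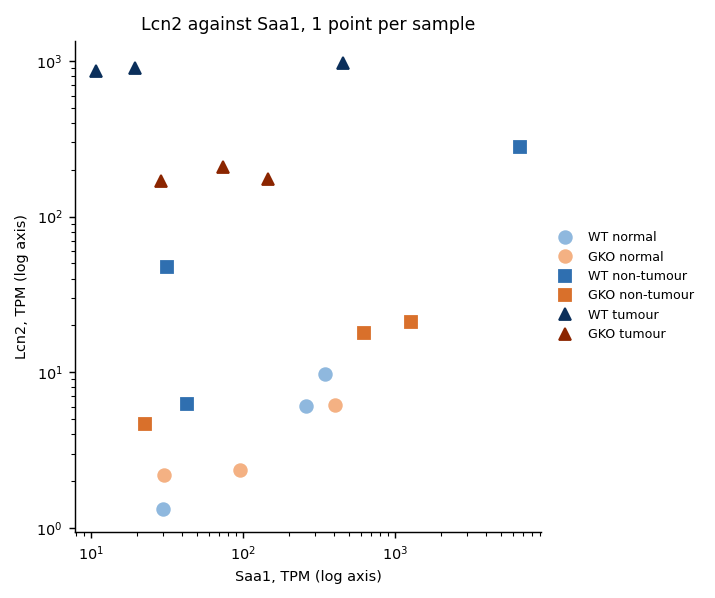
Lcn2 against Saa1 in TPM on log axes, 1 point per sample in the 6 groups. Liver samples run from low to high in both genes, while the 6 tumours have Lcn2 at 168 TPM or more at Saa1 levels from 10.9 to 459 TPM. WT non-tumour 3, at 281 TPM, has more Lcn2 than the GKO tumours, at a Saa1 level of 6688 TPM.

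Within the liver groups the acute-phase genes varied mostly from sample to sample. Saa1 was at 42.7, 31.8 and 6688 TPM in WT non-tumours and at 623, 22.6 and 1281 TPM in GKO non-tumours. In normal livers it was at 262, 348 and 29.6 TPM in WT and at 404, 96.2 and 30.2 TPM in GKO mice. The highest sample was 210 times the lowest in WT non-tumours and 11.7 times in untreated WT livers, so the spread was also seen without DEN.

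Saa2 followed Saa1 closely. It was at 21.1, 12.5 and 6121 TPM in WT and at 275, 10.5 and 781 TPM in GKO non-tumours. Saa2 was always below Saa1, by 1.09 to 5.48 times, and r of the deviations from group means was 0.99. The pair share 31.5% of Saa1's and 30% of Saa2's 50-base stretches with other genes, nearly all with each other, so reads could be split between them. The length used for Saa1, 2478 bases, holds a retained intron and is 4.07 times its longest coding transcript of 609 bases, and for Saa2 it is 3.86 times. This lowers their TPM by about those factors against a level per coding transcript, and that of Lcn2 by 2.87.

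Orm2 was at 46.5, 160 and 1440 TPM in WT and at 120, 31.9 and 618 TPM in GKO non-tumours, and at 15.1 to 60.8 TPM and 28.2 to 76.4 TPM in normal livers. Orm1 exceeded Orm2 in every sample, but the ratio was smallest, 4.97, in WT non-tumour 3 and largest, 114, in GKO tumour 3. Orm1 shares 20.4% of its 50-base stretches with Orm2. Hp was at 6662, 7815 and 18317 TPM in WT non-tumours, so the most abundant member varied 2.75-fold while Saa2 varied 492-fold. Saa4, the constitutive form, stayed between 186 and 273 TPM in that group, and Crp between 89.7 and 148 TPM.

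WT non-tumour 3 had the highest value of its group for 9 of the 10 members, all but Orm3, against 22.3% of all genes. The median log2 difference from the other WT non-tumours was 3.07 over the members. Its 10 members summed to 40649 TPM, against 8409 and 9994 TPM in the others. GKO non-tumour 3 was highest for 9 of 10 members, against 21.2% of all genes, and GKO non-tumour 2 was lowest for all 10 and for 57.0% of all genes. WT tumour 3 was highest for 9 of 10, all but Saa3, against 37.3% of all genes. Macrophage markers were highest in WT non-tumour 3 for 10 of 12 and lowest in GKO non-tumour 2 for 12 of 12, but highest in GKO non-tumour 1, not 3, for 12 of 12. The neutrophil markers with enough signal were highest in WT non-tumour 3 for 3 of 4 and in GKO non-tumour 3 for 4 of 5, and lowest in GKO non-tumour 2 for 5 of 5. In WT tumour 3 they were highest for 1 of 4. The part of these cells in the sample differences was not tested.

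**Figure D4:**
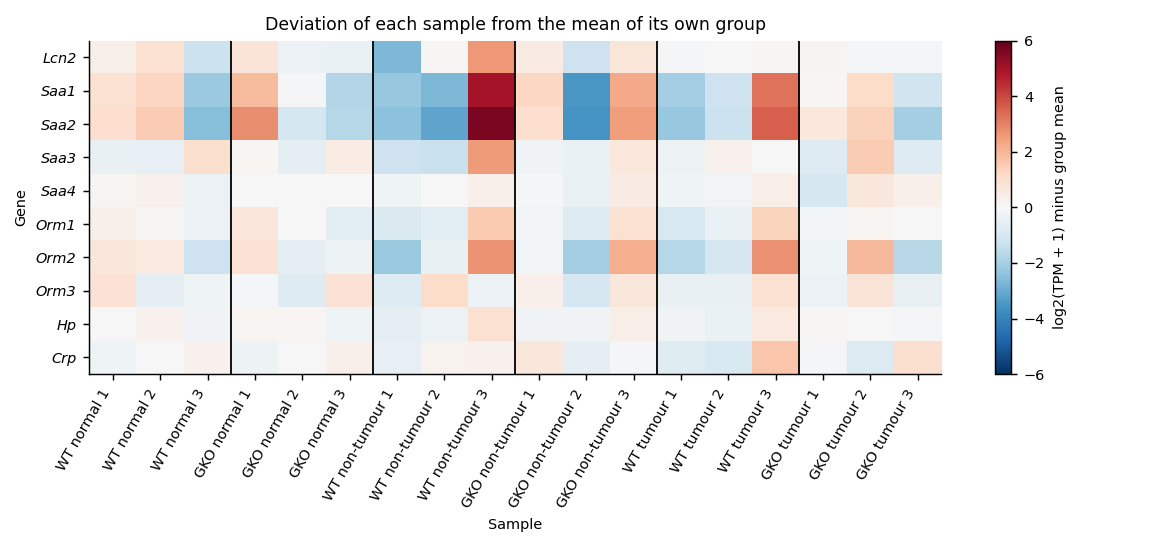
Deviation of log2(TPM + 1) from the mean of the sample's own group, for the 10 genes (rows) in the 18 samples (columns), red above and blue below. Saa1, Saa2 and Orm2 carry most of the colour, and WT non-tumour 3, GKO non-tumour 3 and WT tumour 3 are red across most rows.

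Deviations from the group mean went together most for Saa1, Saa2, Orm1, Orm2 and Hp. Over 18 samples r was 0.93 for Saa1 with Orm1, 0.90 for Saa1 with Orm2, 0.88 for Saa1 with Hp and 0.92 for Orm1 with Hp. Outside the WT non-tumours these were 0.89, 0.91, 0.80 and 0.88 over 15 samples. For Saa3 with Saa1 r was 0.55 over 18 and 0.10 over those 15 samples, so that value rested on the WT non-tumours. The other members followed less closely over the 18 samples: with Saa1, r was 0.54 for Saa4, 0.34 for Crp and 0.28 for Orm3. Orm3 had 0.28 with Orm1, 0.15 with Hp and 0.57 with Orm2. Its low values rested on the WT non-tumours. Over the other 15 samples Orm3 had 0.58 with Saa1, 0.52 with Orm1, 0.35 with Hp and 0.75 with Orm2.

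No member was called in the comparisons among livers. In GKO against WT non-tumours, limma called 0 of 13768 genes, and 5.8% had an unadjusted p under 0.05, none of them a member. No member was without overlap there, against 13.2% of all genes, and Lcn2 had a log2 fold change of -1.81 (SE 1.26, adjusted p = 0.645), or -0.50 without WT non-tumour 3. In GKO against WT normal livers limma again called 0 genes, of 13099, while 3.96% of genes and no member had an unadjusted p under 0.05. Lcn2 had a log2 fold change of -0.39 (SE 0.57) there, Crp was at 86.7 ± 17.7 TPM in GKO and 86.5 ± 15.9 TPM in WT livers (SD, n = 3 each), and no member was without overlap, against 7.95% of genes.

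DEN-treated liver outside tumours was compared with normal liver to ask what treatment and tumour-bearing go with in the surrounding tissue. In WT mice 1 gene of 13440 (0.00744%) was called, and it was no member. Saa4 and Orm3 were higher without overlap, while 33.9% of all genes did not overlap, 31% being higher. Orm3 was at 3.62, 0.728 and 1.12 TPM in normal livers, which is 19, 5 and 9 reads. Its log2 fold change was 2.36 (SE 0.56, adjusted p = 0.122). Saa4 had a log2 fold change of 0.64 (SE 0.24, adjusted p = 0.181), and Lcn2 one of 3.05 (SE 1.25, adjusted p = 0.197). All 10 members had a log2 fold change above 0, as did 79.7% of all genes, and the median was 0.73 against 0.32 over all genes. Without WT non-tumour 3 the median was 0.40 and 7 of 10 were above 0, with Saa1, Saa2 and Orm1 below 0, and without WT non-tumour 1 or 2 it was 1.89 or 1.87. Leaving out WT normal liver 2 or 1 gave 1.32 or 1.19, and 8 of 10 were above 0 without WT normal liver 3. Centring the samples on their medians lowers every value of this comparison by 0.38, and that of Orm1 from 0.30 to below 0.

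In GKO mice limma called 0 of 13530 genes, and 5.2% had an unadjusted p under 0.05, Lcn2 and Orm3 among them. Orm3 was at 1.74, 0.642 and 4.10 TPM in normal livers, which is 11, 4 and 27 reads. In non-tumour livers it was at 12.7, 4.62 and 16.8 TPM. The 2 groups did not overlap, while 8.73% of genes did not, 7.12% being higher. The log2 fold change was 1.97 (SE 0.52, adjusted p = 0.773). Lcn2 overlapped and had a log2 fold change of 1.64 (SE 0.54, adjusted p = 0.906). All 10 members were again above 0, as were 65% of all genes, and the median was 0.98 against 0.08. Without GKO non-tumour 3 the median was 0.22 with 8 of 10 above 0, and without GKO non-tumour 2 it was 1.56. A difference of the DEN effect between the genotypes was not shown for any member: limma called 0 genes and 6.15% of genes and no member had an unadjusted p under 0.05. The difference for Lcn2 was -1.41 (SE 1.52, adjusted p = 0.789).

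By mean level, the order of the groups for Lcn2 was WT tumours, GKO tumours, WT non-tumours, GKO non-tumours, WT normal and GKO normal livers. Only the step from WT to GKO tumours was between groups that did not overlap. For Saa1, Saa2, Saa3, Orm1, Orm2, Orm3 and Hp, and also for Saa4, the WT non-tumours had the highest mean and the GKO non-tumours the next. In these orders neighbouring groups overlapped everywhere except at 2 steps, from WT to GKO tumours for Orm1 and from GKO non-tumours to GKO normal livers for Orm3. By median the order was another for some of these genes. The Saa1 median was 42.7 TPM in WT non-tumours, 623 TPM in GKO non-tumours and 262 TPM in WT normal livers. For Orm1 the medians of these groups were 1521, 2131 and 2091 TPM, while Saa4 and Orm2 kept the non-tumours of WT and then GKO mice highest.

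Other positive acute-phase genes had log2 fold changes above 0 for 14 of 21 genes in WT and 17 of 21 in GKO tumours against non-tumours, beside 47.9% and 62.7% of all genes. Of these 21 genes, 6 rose and 1 fell in GKO tumours, where 7.75% and 3.97% of all genes did, and 2 rose in WT tumours, where 2.16% of all genes did. Cd14, the co-receptor for bacterial lipopolysaccharide, rose by 3.06 on the log2 scale (SE 0.67, adjusted p = 0.0315) in GKO and by 4.28 (SE 0.27, adjusted p = 0.00122) in WT tumours. Il1rn, the antagonist of the interleukin-1 receptor, rose by 2.81 (adjusted p = 0.0133) and 3.43 (adjusted p = 0.00149). Apcs, the serum amyloid P pentraxin, rose by 2.39 in GKO tumours (adjusted p = 0.0196). Hamp, for the iron hormone hepcidin, fell by 3.04 in GKO tumours (adjusted p = 0.0254).

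Cd14 was at 112, 102 and 104 TPM in the WT tumours, above all GKO tumours at 64.0, 56.5 and 10.8 TPM. It was at 6.86 TPM or less in every liver. Like Lcn2 it was therefore high in all 6 tumours, but the genotypes were not called different. The medians of the 21 genes were 0.28 in WT and 1.06 in GKO tumours, the opposite sign to those of the 10 members.

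Of the 9 negative acute-phase genes, 2 rose in WT and 3 in GKO tumours, and none was called lower. Log2 fold changes were above 0 for 6 of 9 in WT and 7 of 9 in GKO mice. Ahsg, for fetuin-A, rose by 2.41 (adjusted p = 0.0151) and 2.67 (adjusted p = 0.0121), and Alb, for albumin, by 1.40 (adjusted p = 0.0358) and 2.00 (adjusted p = 0.00861). Apoa1, for the main protein of high-density lipoprotein, rose by 1.38 in GKO tumours (adjusted p = 0.0362). Among genes called in GKO tumours, 66.1% were higher, or 44.0% after centring the samples on their medians, which lowered all values by 0.24. In GKO against WT tumours and in the liver comparisons, no gene of either list was called.

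**Figure D5:**
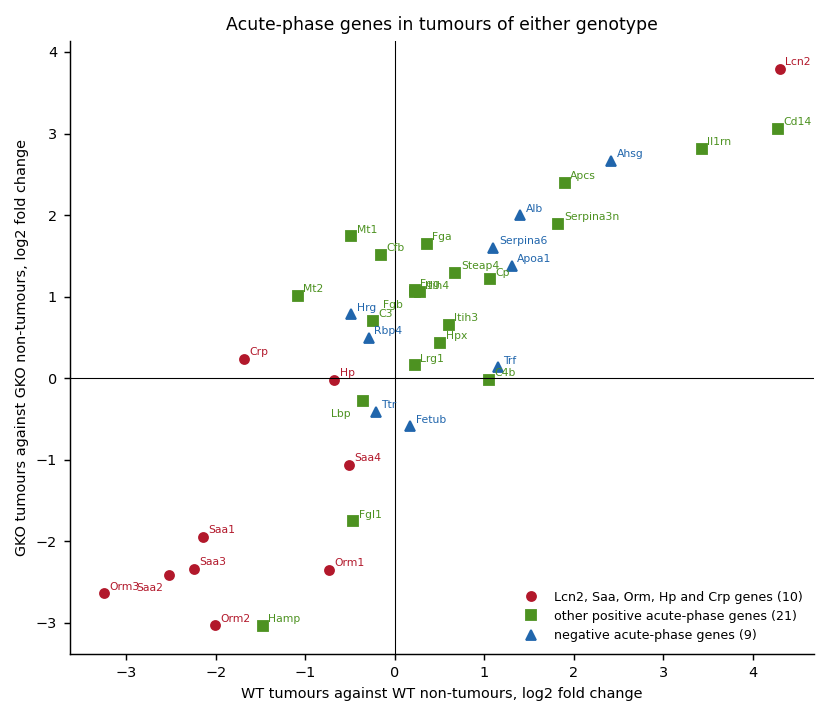
Log2 fold change of tumours against non-tumours in WT (horizontal) and GKO mice (vertical) for the 10 genes, 21 other positive and 9 negative acute-phase genes. Lcn2 lies at the upper right with Cd14 and Il1rn, and the Saa and Orm genes lie at the lower left with Hamp and Fgl1.

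Most of the inducing cytokines were low in the tissue. Il6 was at 0.243 TPM or less and Il22 at 0 in all 18 samples, Il1b was at 0.309 to 3.91 TPM and Tnf at 1.34 TPM or less. Ctf1, for cardiotrophin-1, was at 2.14 to 9.75 TPM. Lif, for leukaemia inhibitory factor, was at 1.78, 3.67 and 0.339 TPM in the WT tumours, which is 64, 131 and 13 reads, and at 0.0746, 1.43 and 0.336 TPM in the GKO tumours, against 0.324 TPM or less in every liver. In WT non-tumour 3, the sample highest in Saa1, Il6 had 1 read (0.0492 TPM), under the floor of 3 reads, and Il1b was at 1.13 TPM, between the other WT non-tumours at 1.53 and 0.385 TPM. Stat3, the transcription factor below the interleukin-6 receptor, had 19.2, 17.7 and 13.2 TPM in the WT and 9.71, 14.0 and 19.2 TPM in the GKO tumours, and was not called in any comparison.

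Socs3, a feedback inhibitor of that receptor, was at 4.46 to 27.0 TPM over all samples and highest in GKO normal liver 1, the GKO normal liver with the most Saa1. Cebpb was at 147 to 432 TPM, Cebpd at 2.52 to 9.21 TPM and Nfkbiz, a nuclear partner of NF-kB, at 2.10 to 5.48 TPM. WT non-tumour 3 was highest in its group for Cebpb, at 410 TPM, and for Cebpd, at 8.87 TPM, but not for Nfkbiz or Socs3. Only 3 or 4 of the 9 cytokines and 8 or 9 of the 10 receptors were high enough to be tested in a comparison, and none of these was called, nor was any of the 16 kinases and transcription factors, all tested. Of the 5 feedback inhibitors, Nfkbia, which holds NF-kB in the cytoplasm, fell by 1.18 in GKO tumours against non-tumours (adjusted p = 0.0211).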

How the data were processed

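RNA-seq values of 18 samples in 6 groups of 3 were used, grouped by the genotype, tissue and treatment in the labels. The submitters' processing notes name STAR 2.7.3a, featureCounts 2.0.0 of the Subread package and mm10. The authors deposited TPM, scaled to 1000000 per sample, with 0 columns lacking a sample. The annotation, strand setting and TPM calculation are not given in the sources used here, so antisense reads cannot be told apart. With exonic lengths of GENCODE mouse release M21, known for 54809 genes, 97.96% to 98.67% of low values (up to 30 reads) were whole reads within 0.02. The median depth was 16973801 reads, and a floor of 3 reads was used. Intervals for counting error were not given, and the reads of Orm3 were few in tumours and normal livers.

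Groups were compared with limma 3.58.1 in R 4.3.3 (lmFit, then eBayes allowing a mean-variance trend). Values entered as log2(TPM + 1), and a gene needed an average of 0.5 TPM over the samples compared. All 10 members passed in all 9 comparisons. A call is an adjusted p (Benjamini-Hochberg, all tested genes) under 0.05. An exact permutation test on 3 against 3 samples cannot go below 0.1. The procedure was tested on simulated data. Promoters were searched in Python 3.11.15 with numpy 2.4.6 and pandas 2.3.3, and figures drawn with matplotlib 3.10.9.

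The members and the lists of related genes and cell markers were chosen with earlier results of these data known. Genes named are the members; in each list and comparison the called genes, at most the 3 largest each way; Il6, Il1b, Tnf, Stat3, Socs3, Cebpb, Cebpd and Nfkbiz; and the 5 genes most like a member. Il22, Lif, Ctf1, Ly6g, Mpo and the deleted genes lie outside this rule and were picked after seeing their values.

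Equal replicate numbers of GKO and WT tumours deviated together from their group means, with correlations of 0.10, 0.12 and 0.20 over genes, so a block for the number was reported beside Lcn2 there. The labels give no shared animal or batch. In other comparisons at least 1 correlation was under 0.1. Alternatives were a pseudocount of 0.1, no filter, an average of 5 TPM or more, median centring, all 18 samples in one fit, the block, leaving out each replicate, and WT tumours 1 and 2 averaged. Voom on the recovered reads was chosen after seeing the data.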

Additional observations from a re-analysis of the deposited data

How the results depend on the processing

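With 3 samples in a group, single samples moved many values of the Saa and Orm genes. In GKO against WT tumours 1 member was called, Lcn2. The count was 0 with pseudocount 0.1, without the low-value filter, with median centring, all 18 samples in one fit, the replicate block, WT tumours 1 and 2 averaged, and voom, and 0 to 1 leaving out each replicate. Over these, Lcn2's log2 fold change lay between -2.40 and -2.25 and its adjusted p between 0.0151 and 0.517. The cause was not tested. Saa1 there turned to -0.29 with WT tumours 1 and 2 averaged and ran from -0.49 to 2.15 leaving out each replicate.

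In WT tumours against non-tumours the count was 1, Orm3. It was 0 with no filter, with WT tumours 1 and 2 averaged and with voom, 2 (Lcn2 and Orm3) with all 18 samples in one fit, and 0 to 2 leaving out each replicate. With the replicate block it was 1, but this was Orm2, and Orm3 had an adjusted p of 0.0511. Leaving out each replicate took Saa1 from -3.77 to 0.35 and Orm1 from -1.41 to 0.041. In GKO tumours against non-tumours the count was 3, with no filter 1 (Lcn2), with the replicate block 3, and 1 to 4 leaving out each replicate. The counts over all genes moved too: with all 18 samples in one fit from 3 to 107 between the tumours, from 592 to 1649 in WT and from 1652 to 2722 in GKO mice, and with no filter to 0, 297 and 589.

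In the other 6 comparisons 0 members were called under every alternative, the replicate block included. Leaving out each replicate, Lcn2 ran from -1.03 to 0.073 in GKO against WT normal livers and from -1.81 to 0.83 in the difference of the genotype effect, tumours minus non-tumours. Median centring subtracted, from all values, 0.24 in GKO tumours against non-tumours, -0.17 in GKO against WT non-tumours, 0.38 and 0.11 in WT and GKO non-tumours against normal livers, and 0.22 and -0.27 in the differences of the genotype effect. Of the 66 member values not given with a standard error in the text, 35 changed sign under at least 1 alternative and 2 passed the threshold under any. Outside the tumour genotypes at least 1 correlation of equal replicate numbers was under 0.1, which does not show different mice. In GKO mice each tumour was most like the non-tumour of its own number, at 0.12, 0.07 and 0.04. WT tumour 3 had 0.25 with WT non-tumour 3, while numbers 1 and 2 had 0.01 and -0.01. Depth limited only Orm3, with 0 to 13 reads in tumours and 4 to 27 reads in normal livers.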

Other observations

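For 7 of the acute-phase genes, the 5 genes outside the 10 members with the most similar levels over the 18 samples were listed, by Pearson's r of log2(TPM + 1) among 6858 genes averaging 5 TPM or more. The values describe samples in 6 groups, were the highest of many, and are no test. For Lcn2 they were Serpind1 (0.94), which encodes the thrombin inhibitor heparin cofactor II, Wsb2 (0.94), Tpst2 (0.93), Dnajc10 (0.93) and Mpeg1 (0.93), a pore-forming protein of macrophages. Spearman's rho for these lay between 0.87 and 0.96, and without the 2 samples farthest from the median of Lcn2, WT tumours 2 and 3, r lay between 0.90 and 0.92.

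For Saa1 the first outside the members was Serping1 (0.81), which encodes the C1 complement inhibitor, followed by Fgl1 (0.80), Cyp2d40, C8b and Ifitm2. Without WT non-tumour 3 and GKO non-tumour 3, r was 0.71 for Serping1 and 0.67 for Fgl1. The same 5 genes led the list for Saa2, and Serping1 also led that for Hp (0.76) and among the 5 for Orm2 (0.77). The first for Saa3 was Cpsf4 (0.75), and its 5 held Vsig4 (0.73), a receptor of Kupffer cells, the macrophages of the liver. Slc40a1, the iron exporter ferroportin, was among the 5 for Saa3 (0.74) and for Orm1 (0.78). The members themselves were left out: Saa1 had r of 0.99 with Saa2 and 0.82 with Orm2, and Hp had 0.81 with Saa1, all above the genes listed. None of the genes listed for Lcn2 was among the 5 of the other 6 acute-phase genes searched.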
